A study of Drosophila melanogaster with 47 samples.

Results

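The regions described here are stretches of the Drosophila melanogaster genome that were bound by Su(H) together with 1 to 3 other mapped regulators, and that carried no peak of Cmi. They numbered 435 of the 6511 regions obtained when the peaks of 16 chromatin immunoprecipitation sequencing (ChIP-seq) lists were merged at an overlap of at least 1 bp on the main arms (X, 2L, 2R, 3L, 3R and chromosome 4). That is 6.68% of all merged regions, and 24.0% of the 1814 regions that held a Su(H) peak. A merged region was counted by the number of different regulators with a peak in it, the 2 lists of prd as 1 regulator and the 2 lists of Hr78 as 1. A member had 2 to 4 regulators, one of them Su(H) and none of them Cmi. The members were therefore selected on the measured presence and absence of peaks, and every count of partners below describes that selection. No test is attached to any of them.

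The data came from 47 samples, 35 of them immunoprecipitated and 12 of them inputs, which are chromatin sequenced without antibody enrichment. Each of the 14 regulators was given as 1 peak list for a group of 2 or 3 replicate samples (2 lists each for prd and Hr78). There is no value per replicate, so no difference below could be set against replicate spread. Intervals are exact 95% Clopper-Pearson intervals of a share and cover counting error only, and neighbouring regions are not independent.

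Su(H) was precipitated from Kc167 cells, a line of embryonic origin, with the antibody Su(H)d-300. The lists of insv, h and dm also came from Kc167 cells, with their own antibodies, and the labels hold a single Kc167 input for all 4 lists. CG8478 was mapped in S2 cells, another embryonic line. A further 6 lists used anti-GFP on flies carrying a GFP-tagged protein, namely Notch-GFP, LolaI-GFP, AbdB-GFP and Hr78-GFP at the stage W3L (larvae), Hr78-GFP in embryos at 8 to 16 h and Stat92E-GFP in embryos at 0 to 12 h. Embryos at 0 to 8 h gave br and Cmi, the Cmi samples being labelled as Exd-GFP material. The prd lists came from embryos at 0 to 12 h with the antibodies RF12 and RF13, and cnc from adult females. Su(H) and most of its partners were thus mapped in different cells or stages, and a shared region is one where peaks fell in the same place, not one shown to be bound by both proteins in the same cell. The control of each peak call, the promoter driving each tagged protein and the depth of each library are unknown here.

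Su(H) is the DNA-binding transcription factor of the Notch pathway. When a ligand activates the Notch receptor, its intracellular domain is cut free, enters the nucleus and joins Su(H) at target genes as an activator, and without that signal Su(H) recruits corepressors to the same genes. One of these corepressors is Insensitive (insv), a BEN-domain protein that binds Su(H). Cmi (Cara Mitad, listed as Lpt in the RefSeq gene table) belongs to a Trithorax-related complex that modifies histone H3 at enhancers.

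CG8478 and Notch were the most frequent partners. CG8478 had a peak in 197 members (45.3%, interval 40.5 to 50.1%), beside 18.9% of all merged regions. Notch had one in 179 members (41.1%, 36.5 to 45.9%), beside 36.6% of all merged regions. The Notch share among members therefore lay close to that of all regions. A merged region of any kind needs only 1 peak, whereas a member was required to hold at least 1 partner, so the shares over all regions are a background and not an expectation.

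Hr78, an orphan nuclear receptor that acts at the onset of metamorphosis, had a peak in 101 members (23.2%, 19.3 to 27.5%), beside 20.1% of all regions. The corepressor insv had one in 68 members (15.6%, 12.3 to 19.4%), beside 3.16% of all regions. Cnc, the fly relative of the Nrf stress-response factors, was present in 53 members (12.2%, 9.26 to 15.6%), beside 7.48%. AbdB, the most posterior Hox protein, was present in 49 members (11.3%, 8.45 to 14.6%), beside 10.6%.

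The remaining partners were rare. The repressor h (hairy, of the HES family) was found in 27 members (6.21%), beside 2.95% of all regions, and the BTB zinc-finger protein Lola in 26 (5.98%), beside 4.67%. Broad (br), an ecdysone-response factor, was found in 15 members (3.45%), beside 5.48%, and the segmentation factor prd in 12 (2.76%), beside 7.26%. Stat92E, the transcription factor of the JAK/STAT pathway, was found in 3 members (0.690%), beside 2.66% of all regions. The Myc protein dm was also found in 3 (0.690%), beside 0.937%. All 12 members with prd held a peak of RF13, and the RF12 list was present in 0 of 435 members, which allows a share of up to 0.690%.

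The set closest in its selection is the 333 regions with 2 to 4 regulators that held Cmi and no Su(H). The same 12 regulators could be their partners. The sets differ in material, since Su(H) was mapped in Kc167 cells, as were insv, h and dm, and Cmi in embryos at 0 to 8 h. CG8478 was present in 45.3% of members and in 22.5% of those Cmi regions (interval 18.1 to 27.4%). For insv the shares were 15.6% of members and 0.601% of the Cmi regions (2 regions, interval 0.0728 to 2.15%). Cnc was present in 12.2% of members and 4.80% of the Cmi regions. Among the regulators with a lower share in members, Notch was present in 41.1% of members and 52.0% of the Cmi regions, h in 6.21% of members and 13.5% of the Cmi regions, and prd in 2.76% of members and 10.2% of the Cmi regions. Of the 34 Cmi regions with prd, 27 held RF12 and 7 held RF13, whereas the members held RF13 alone. These differences were not tested, since both sets were defined by the presence of peaks. Nor can the part of Su(H) and Cmi be told apart from that of the material each was mapped in.

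**Figure D1:**
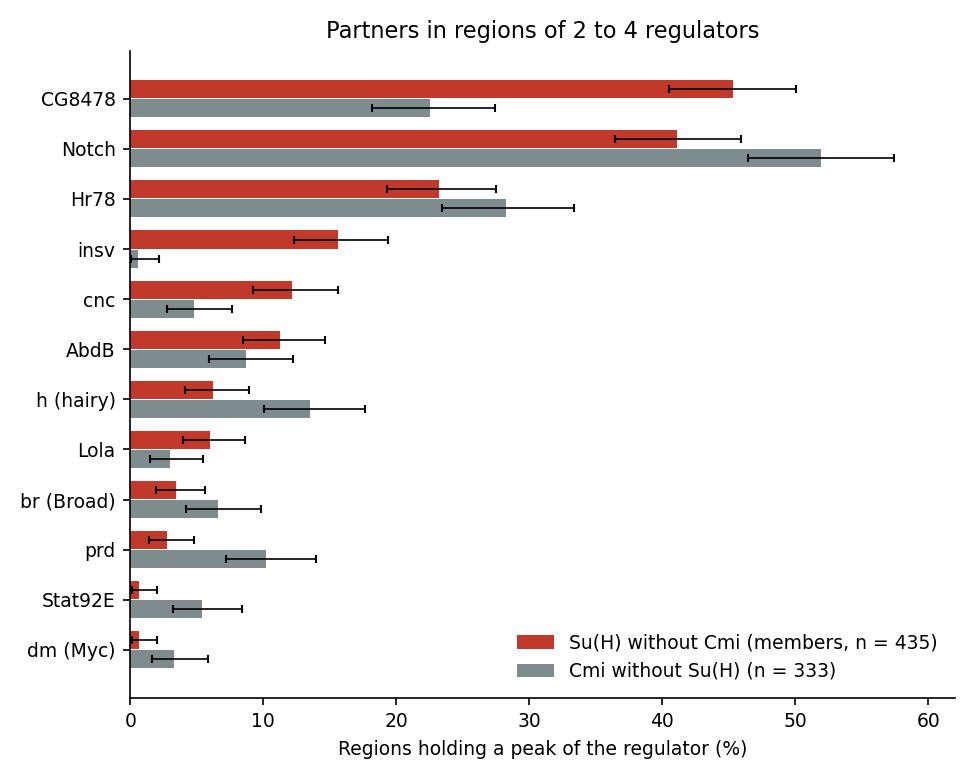
Share of regions (x axis, %) with a peak of each regulator (y axis) in the 435 members and in the 333 regions with Cmi and without Su(H), all with 2 to 4 regulators. Error bars are exact 95% intervals of counting error. The bars of CG8478, insv, cnc, AbdB and Lola are longer in members, and those of Notch, Hr78, h, br, prd, Stat92E and dm are longer in the Cmi regions.

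Read from the partners' side, the members took very different shares of each list. They held 33.0% of the 206 regions with insv, 16.0% of the 1228 with CG8478, 14.1% of the 192 with h and 10.9% of the 487 with cnc. They held 7.72% of the 1309 regions with Hr78, 7.52% of the 2380 with Notch and 7.12% of the 688 with AbdB. Of the remaining insv regions, 51 (24.8% of all insv regions) lay in Su(H) regions with 5 or more regulators and 19 (9.22%) in Su(H) regions with Cmi and 2 to 4 regulators. Notch was distributed otherwise, with 828 of its regions (34.8%) in regions of 2 to 4 regulators that held neither Su(H) nor Cmi.

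The selection limited members to at most 3 partners, so their low number was set in advance. A single partner was present in 225 members (51.7%, 46.9 to 56.5%), 2 partners in 122 (28.0%) and 3 partners in 88 (20.2%). A member with a single partner has 2 regulators. Among other regions of 2 to 4 regulators, the share with 2 was 58.3% with Cmi and no Su(H) (52.8 to 63.6%). It was 58.6% with neither protein (55.4 to 61.8%) and 40% with both (34.0 to 46.2%). These shares were not tested against each other. The partners formed 69 distinct combinations, of which 34 occurred once. The first 10 by number accounted for 285 members (65.5%), and 2 further combinations tied with the tenth at 10 members each. CG8478 as the only partner of Su(H) was the commonest of all, with 88 members (20.2%, 16.6 to 24.3%). Notch as the only partner followed with 36, insv with 27 and cnc with 26.

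The commonest combinations of several partners were built on Notch and Hr78. Hr78 with Notch occurred in 25 members, CG8478 with Hr78 and Notch in 24, CG8478 with Notch in 20, and AbdB with Hr78 and Notch in 18. CG8478 with insv occurred in 11.

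**Figure D2:**
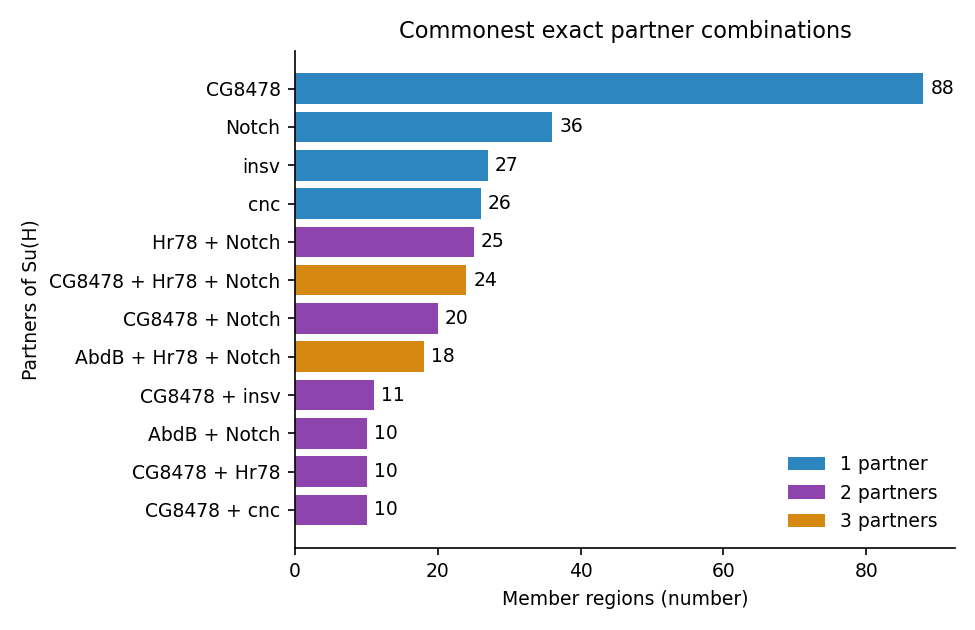
Number of members (x axis) with each exact set of partners besides Su(H) (y axis), for the 12 most frequent sets, coloured by the number of partners. CG8478 alone leads with 88 members, and every set of 3 partners shown holds Hr78 and Notch.

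Partners differed in how often they stood alone with Su(H). Cnc was the only partner in 26 of its 53 members (49.1%, 35.1 to 63.2%), CG8478 in 88 of 197 (44.7%, 37.6 to 51.9%) and insv in 27 of 68 (39.7%, 28.0 to 52.3%). Notch was the only partner in 36 of 179 (20.1%, 14.5 to 26.7%). Hr78 stood alone in 9 of 101 (8.91%) and AbdB in 3 of 49 (6.12%). Over all merged regions, cnc was the only regulator in 328 of its 487 regions, CG8478 in 458 of 1228 and Notch in 817 of 2380. AbdB was the only one in 28 of 688 and insv in 33 of 206. The order of cnc, CG8478, Notch and AbdB is thus not particular to members. Most members with Hr78 or AbdB also held Notch, 76 of 101 with Hr78 (75.2%) and 40 of 49 with AbdB (81.6%). Of the members with Notch, 42.5% held Hr78 and 22.3% held AbdB. By contrast, insv was found with CG8478 in 16 of its 68 members (23.5%), with Notch in 15 (22.1%) and with h in 8 (11.8%). Shares of such pairs were not computed over all regions.

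The partners can also be grouped by the material and antibody of their lists. At least 1 of the 6 anti-GFP lists, Notch, Hr78 and AbdB among them, was present in 231 members (53.1%), and only such lists were present in 116 (26.7%). At least 1 anti-GFP list was present in 65.8% of the regions of 2 to 4 regulators with Cmi and no Su(H). The shares were 93.1% with neither protein and 36.2% with both. A partner from Kc167 cells was present in 90 members (20.7%), and only such partners in 41 (9.43%). In the same classes, in the same order, a Kc167 partner was present in 17.4%, 7.14% and 9.62%. None of these shares was tested. The groups were the anti-GFP lists of larvae or embryos, Kc167 cells, S2 cells, adult females, and the embryo lists of br and prd. Members with partners from 2 or more of these groups numbered 148 (34.0%). Lola, an anti-GFP larval list like those of Notch and AbdB, was the only partner in 8 of its 26 members (30.8%) and was found with Notch in 7 (26.9%). For Notch, AbdB and Lola the larval stage and the anti-GFP antibody cannot be told apart, since each has a single list.

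Hr78 was mapped at 2 stages. Of the 101 members with Hr78, 72 held only the larval peak (71.3%), 13 only the embryonic peak (12.9%) and 16 both (15.8%, 9.33 to 24.4%). The share with both stages was similar in regions with Su(H), Cmi and 2 to 4 regulators, at 5 of 36 (13.9%, 4.67 to 29.5%), and was 21 of 94 (22.3%, 14.4 to 32.1%) in those with Cmi and no Su(H). Both stages were present in 257 of the 622 regions with Hr78 and neither Su(H) nor Cmi (41.3%, 37.4 to 45.3%), and in 77 of the 182 regions with Hr78 and Su(H) among 5 or more regulators (42.3%, 35.0 to 49.8%). By the authors' score, the −log10 p of the peak, the larval Hr78 peaks of members had a median percentile of 38.5 within their own list, where 100 is the best peak. The larval Hr78 peaks shared with other regulators but not with Su(H), again with 2 to 4 regulators, had 54.2, and those in regions with Su(H) and Cmi had 33.7.

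Partners differed in how their peaks in members ranked in their own list. Notch peaks in members had a median percentile of 47.8 (interquartile range 25.7 to 60.7) in the Notch list, and Notch peaks shared without Su(H) had 63.6 (37.6 to 82.9). AbdB peaks had 39.2 in members and 49.9 when shared without Su(H), and h peaks had 40.7 in members and 70.9 when shared without Su(H). In regions with Su(H) and Cmi the medians were as low or lower, at 40.8 for Notch, 38.0 for AbdB (6 regions) and 15.0 for h (6 regions). Peaks in regions of a single regulator had 28.8 for Notch, 26.9 for AbdB and 43.5 for h. Members also ranked below peaks shared without Su(H) for insv (51.6 and 60.8) and Lola (39.8 and 53.0). The same held for embryonic Hr78 (38.4 and 56.5) and for Stat92E (39.8 in 3 members and 57.5). The order was the other way for br, with 60.0 in members and 51.7 when shared without Su(H), for prd (RF13), with 68.6 in members and 59.8 when shared without Su(H), and for dm, with 61 in 3 members and 52.5 when shared without Su(H). CG8478 peaks differed little, with 50.7 in members and 52.6 when shared without Su(H), and cnc peaks likewise, with 57.4 in members and 58.2 when shared without Su(H). Percentiles are used because the score is comparable within a list only. The score of a Su(H) peak ranged from 2.62 to 8.95 with 796 distinct values over 2018 peaks, so many peaks tied and took their mean rank.

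The best Su(H) peaks of members ranked above those of regions with Su(H) alone. The best Su(H) peak of a member had a median percentile of 61.1 (interquartile range 34.3 to 83.5) in the Su(H) list. The 908 regions with Su(H) and no other regulator had 42.4 (20.5 to 63.7). The 260 regions with Su(H), Cmi and 2 to 4 regulators had 67.4 (38.9 to 82.2), and the 211 Su(H) regions with 5 or more regulators had 71.8 (43.6 to 88.3). The distributions overlap widely. In fold enrichment over background, also the authors' value, the medians were 2.48 in members and 2.33 where Su(H) was alone. Peak width moved with rank. The best Su(H) peak had a median width of 362 bp in members and 237.5 bp where Su(H) was alone, and a wider peak has more room to meet a partner peak. Its part in these differences was not tested.

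Members with insv had Su(H) peaks of higher rank than the other members, a difference described here without a test because regions of 1 list are not replicates. In the 68 members with insv the median Su(H) percentile was 90.8 (interquartile range 77.4 to 97.7), against 55.1 (27.5 to 77.4) in the 367 members without insv. Su(H) lay in the top 10% of its list in 36 of the 68 (52.9%, 40.4 to 65.2%). These 36 are 48.0% of the 75 members in the top 10%, although members with insv are 15.6% of all members. The median Su(H) fold enrichment was 2.97 in members with insv and 2.42 in those without.

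The difference was present at each number of regulators. With insv as the only partner, the median Su(H) percentile was 92.3 in 27 members, against 55.1 in the 198 members with another single partner. Among members with 3 regulators it was 87.6 with insv and 46.2 without, and among those with 4 regulators 96.6 with insv and 60.2 without. On every arm except chromosome 4, which held a single member, the median was higher with insv, by 24.2 percentile points on X and by 45.2 on 2R. The difference was smaller when members were split at the median width of the Su(H) peak. Members whose Su(H) peak was wider than the median had 93.4 with insv (54 members) and 77.4 without (163), and those with a narrower peak had 43.0 with insv (14 members) and 34.5 without (204). The Su(H) peak itself was wider in members with insv, with a median of 621 bp, against 327 bp in those without. Among the wider peaks the median widths were 805.5 bp with insv and 554 bp without, and among the narrower ones 227 and 192.5 bp. The split therefore did not match the peaks for width.

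The insv peaks of those members were of middling rank in the insv list, with a median percentile of 51.6. Within these 68 members the ranks of the Su(H) and the insv peak were weakly related (Spearman's rho 0.16 across regions, which share their libraries). The same direction appeared outside the members. Su(H) regions with Cmi had a median Su(H) percentile of 94.7 in the 19 with insv and 63.3 in the 241 without, and Su(H) regions with 5 or more regulators had 92.6 in the 51 with insv and 63.6 in the 160 without. For h, also mapped in Kc167 cells, the median was 61.1 in the 27 members with h and 60.6 in the 408 without. In Su(H) regions with 5 or more regulators, however, the median was 88.6 in the 19 with h and 70.6 in the 192 without. The part of cell type and input in these differences was not tested.

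**Figure D3:**
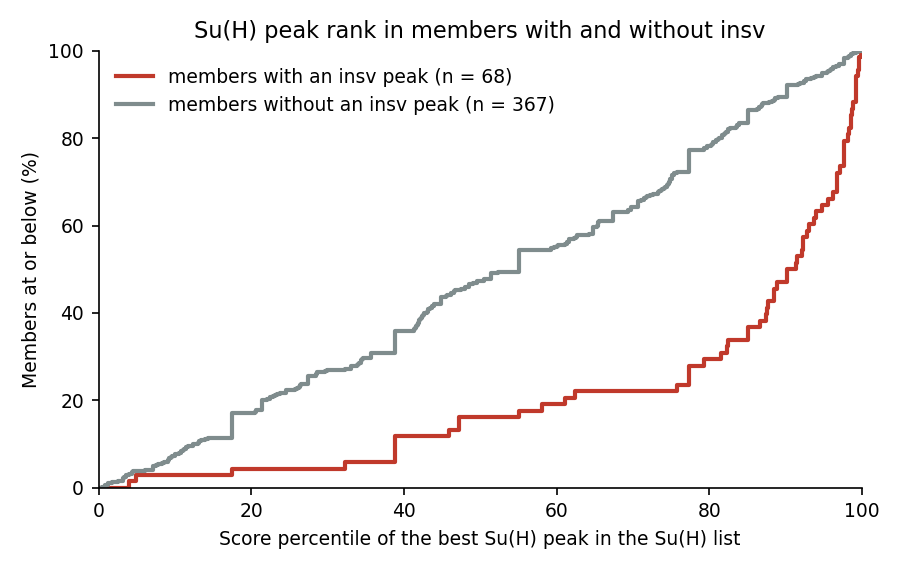
Cumulative share of members (y axis, %) by the score percentile of their best Su(H) peak in the Su(H) list (x axis), for the 68 members with an insv peak and the 367 without. The curve with insv stays low until the upper end of the list, with a median of 90.8, and the curve without insv rises almost evenly, with a median of 55.1.

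No other frequent partner came with a shift of that size. Members with CG8478 had a median Su(H) percentile of 60.0, against 61.9 in those without. Members with Hr78 had 61.1, against 60.6 without, and members with Notch had 55.1, against 62.6 without. Cnc stood with lower Su(H) ranks, 47.9 in its 53 members against 61.9 in the other 382, and so did br, with 45.5 in 15 members against 61.6. Lola stood with higher ones, 72.4 in 26 members against 58.1.

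**Figure D4:**
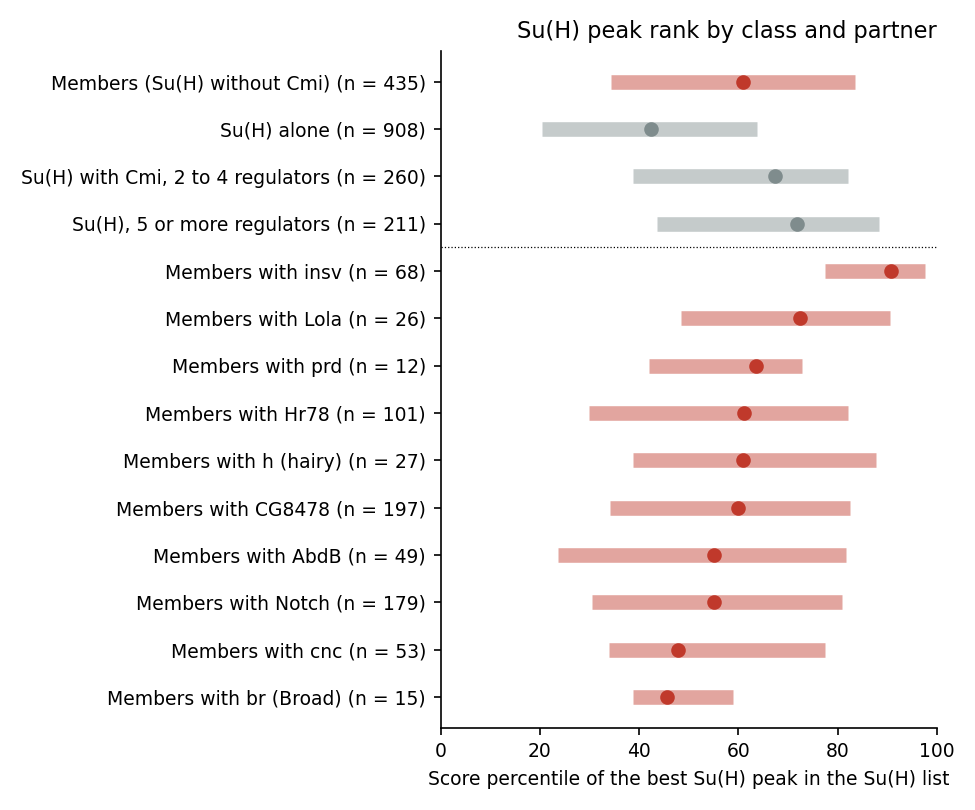
Score percentile of the best Su(H) peak in the Su(H) list (x axis), as the median (dot) and interquartile range (bar), in the members, in the other classes of Su(H) regions (above the dotted line) and in the members with each partner found in at least 10 members (below it). Of the sets drawn, members with insv have the highest median, 90.8, and Su(H) alone has the lowest, 42.4.

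Of the 10 members with the highest Su(H) score, 8 held insv, a count taken from the same Su(H) scores as the difference above. The first, on 3L from 20942415 to 20943585 (build dm3), held Su(H) and insv only. Its Su(H) peak was 1171 bp wide with a fold enrichment of 3.56, while its insv peak, of fold 2.50, stood at percentile 13.1 of the insv list. Their summits were 29 bp apart, and the nearest Cmi peak was 56901 bp away. Further members with insv as the only partner were on 3L from 6935882 to 6936882, on 3L from 10674736 to 10675458 and on 2L from 9781977 to 9782451, with summits 41, 3 and 22 bp apart.

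The second member by score, on 2R from 19553846 to 19555239, held CG8478 and insv beside Su(H). Its insv summit lay 127 bp from the Su(H) summit and its CG8478 summit 381 bp away. The third, on X from 3570722 to 3572066, held CG8478, larval Hr78 and insv, at 343, 284 and 9 bp from the Su(H) summit. The fifth and the sixth, on 2L from 14409429 to 14410583 and on 2L from 8534415 to 8536200, combined insv with Notch and Hr78. In the fifth, the insv summit was 100 bp from that of Su(H), the Notch summit 808 bp and the embryonic Hr78 summit 739 bp. In the sixth the distances were 32 bp for insv, 558 bp for Notch and 486 bp for larval Hr78. In these 4 regions of mixed composition the insv summit was the nearest to that of Su(H).

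The 2 members of the top 10 without insv had 4 regulators each. One, on 3R from 22055113 to 22056166, held h, CG8478 and cnc, with the h summit 11 bp and the cnc summit 615 bp from that of Su(H). The other, on 2R from 20655071 to 20656374, held Notch, AbdB and both stages of Hr78, and was also the best member of the combination of AbdB, Hr78 and Notch. Its Notch peak stood at percentile 77.9 and its AbdB peak at 86.0 of their lists, and their summits were 453 and 380 bp from that of Su(H).

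The best member with h was the one on 3R just described, and the best members of the other rare partners lay outside the top 10. The best with Lola, on X from 18298114 to 18298922, also held insv, whose summit coincided with that of Su(H). The best with prd, on 3R from 15715583 to 15716058, had Su(H) at percentile 96.2 and a prd summit 150 bp away. The best with Stat92E, on X from 4511186 to 4511721, had Su(H) at percentile 85.1 and Stat92E at 92.2 of its list. The best with br, on 3R from 9470162 to 9471469, held Hr78 and Notch as well, had Su(H) at percentile 77.4 and lay 345 bp from a Cmi peak. The best with dm, on X from 18176431 to 18176794, had Su(H) at percentile 72.6. The best with CG8478, Hr78 and Notch, on 2R from 16963098 to 16963963, had Su(H) at percentile 93.4, a Notch summit 1 bp away and a CG8478 summit 98 bp away. The best with AbdB, CG8478 and Notch, on X from 5410556 to 5412607, had all partner summits at 10 to 30 bp from that of Su(H).

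The placement of summits within members differed between partners. The insv summit was a median of 29 bp (interquartile range 5.75 to 85.75) from the nearest Su(H) summit and within 100 bp of it in 54 of 68 members (79.4%, 67.9 to 88.3%). All 68 insv peaks overlapped a Su(H) peak over at least 50% of the shorter peak, and the shorter of the pair lay wholly inside the other in 63. The insv summit lay inside a Su(H) peak in all 68. The Su(H) peaks of these members had a median width of 621 bp and the insv peaks 266.5 bp, and a wide Su(H) peak makes overlap and containment more likely. The part of width in these counts was not tested. The nearness of insv was not particular to members. In Su(H) regions with Cmi and 2 to 4 regulators the median was 25 bp, and 14 of 19 (73.7%) lay within 100 bp. In Su(H) regions with 5 or more regulators it was 31 bp, and 39 of 51 (76.5%) lay within 100 bp.

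The h summit, also from Kc167 cells, was a median of 62 bp (6 to 127.5) away in 27 members. CG8478 followed at 76 bp (19 to 158) in 197 members and lay within 100 bp in 116 of them (58.9%, 51.7 to 65.8%). Larval Hr78 was at 103 bp (36 to 231) in 88 members, br at 108 bp, AbdB at 123 bp, cnc at 124 bp and Notch at 125 bp (31 to 230). Lola at 139.5 bp and embryonic Hr78 at 164 bp (53 to 259) were the farthest. Notch lay within 100 bp in 80 of 179 members (44.7%, 37.3 to 52.3%). The interquartile ranges of the partners named here, from h to embryonic Hr78, overlap. That of insv (5.75 to 85.75 bp) overlaps each of these except that of Lola, which starts at 86.25 bp. The part of the Kc167 cell type and of the input, whose use for each list is unknown, in the nearness of insv and h was not tested.

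**Figure D5:**
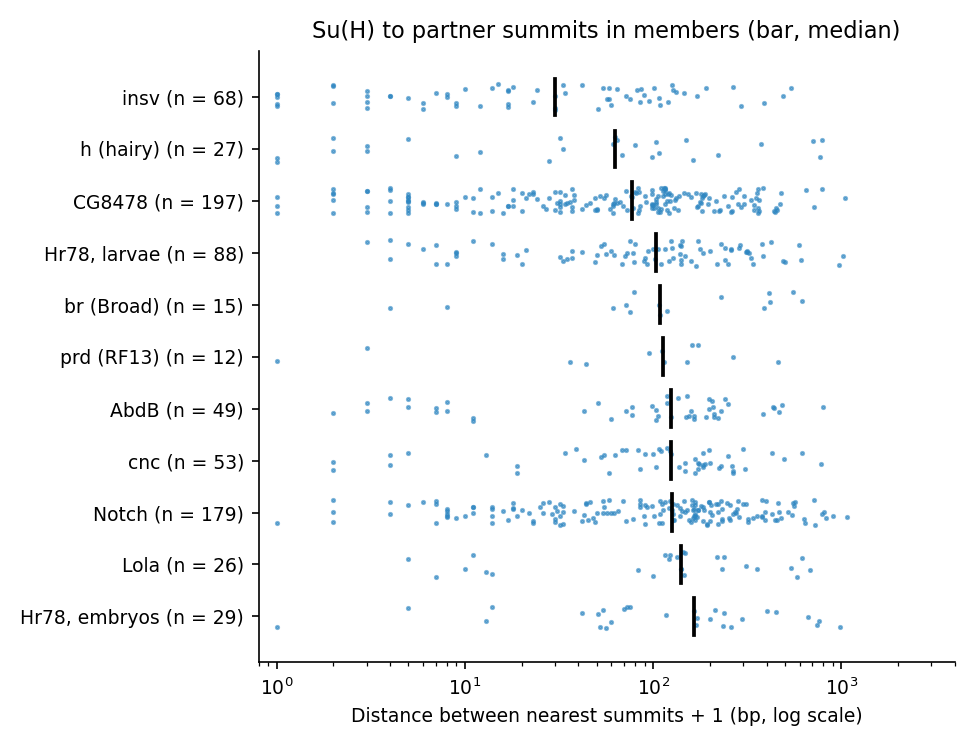
Distance between the Su(H) summit and the nearest partner summit in each member (x axis, bp plus 1 on a log scale; points) and its median (black bar), for partners with at least 10 members (y axis). The medians run from 29 bp for insv to 164 bp for embryonic Hr78, and the points of every partner spread over more than 100 bp.

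A region formed by merging can chain peaks that do not touch. In 411 members (94.5%, 91.9 to 96.4%) every partner itself overlapped a Su(H) peak. For the 225 members with a single partner this was set in advance, because only such an overlap could join the 2 regulators. Only members with 2 or 3 partners could differ. The overlap counts of each partner below likewise include members in which it was the only partner. Over all members the nearest partner summit was a median of 59 bp (10.5 to 138) from that of Su(H). Among partners with at least 10 members, embryonic Hr78 overlapped a Su(H) peak least often, in 23 of 29 members (79.3%), and Lola in 22 of 26 (84.6%). The dm peak overlapped one in 2 of 3. More than 1 Su(H) peak was present in 40 members (9.20%).

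Members were spread over the arms much like other Su(H) regions. X held 103 members (23.7%, 19.8 to 28.0%), 22.0% of the regions with Su(H) alone and 20.9% of all merged regions. The other arms held 106 members (3R), 98 (2R), 71 (3L) and 56 (2L), and chromosome 4 held 1. Members with CG8478 were few on 2L, with 17 of 197 (8.63%, 5.11 to 13.5%), beside 14.5% of the other regions with CG8478. This is 1 of many pairs of partner and arm that were compared. Others differed as much, such as h on 3R, with 12 of 27 members (44.4%) beside 21.2% of the other regions with h. AbdB on 3L had 3 of 49 members (6.12%) beside 18.3% of the other regions with AbdB. None of these pairs was tested.

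Of the 435 members, 123 (28.3%) were within 10000 bp of another member. No such share was computed for other sets of regions, so it does not show that members cluster more than others. The densest windows of up to 200000 bp were picked after the counts were seen and are given as a description. The densest, on X from 3570722 to 3673636, held 10 members among 31 merged regions, and 25 of the 31 held Su(H). All 10 members held CG8478, 6 of them as the only partner, and 4 held larval Hr78. Their Su(H) peaks ranged from percentile 11.2 to 99.7, the highest being the third member by score described above. Cmi was near, with a peak in 9 of the 31 regions and within 2000 bp of 5 of the members.

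A second window on X, from 7498523 to 7604316, held 8 members, all with CG8478 and 6 with CG8478 only. There 18 of 25 merged regions held Su(H), and 1 held Cmi. In a window on 2R from 6311568 to 6506078, 5 of 8 members held CG8478 and 18 of 49 merged regions held Cmi. The genes in these windows were not determined here.

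The absence of Cmi rests on where a region ends. The nearest Cmi peak was a median of 22521 bp from a member (interquartile range 4804.5 to 60676.5). It lay within 500 bp of 28 members (6.44%) and within 2000 bp of 69 (15.9%, 12.6 to 19.6%). A Cmi peak was within 2000 bp of 13.8% of the regions with Su(H) alone (11.6 to 16.2%) and of 8.74% of the regions of 2 to 4 regulators with neither protein (7.01 to 10.7%). Among members, the share within 2000 bp was 22.8% with Hr78 (15.0 to 32.2%), 21.2% with Notch (15.5 to 28.0%) and 16.2% with CG8478. It was 7.55% with cnc and 7.35% with insv (5 of 68, 2.43 to 16.3%).

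At the edges of the selection, 7 members had a Cmi peak within 100 bp, the smallest gap being 42 bp. The 88 members with 4 regulators had a median Su(H) percentile of 70.2 and a median region width of 769 bp. The 46 regions just outside, with Su(H), no Cmi and 5 regulators, had 67.4 and 948 bp.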

How the data were processed

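The authors deposited 1 peak list per group. Per the submitters' processing notes, CASAVA 1.7.0, BWA, MACS2 and the build dm3 were used, with settings, thresholds and controls not given in the sources used here. Whether replicates were pooled is not stated, and depth is unknown. Each deposited line gave a position, the authors' fold enrichment as a ratio, the authors' −log10 p (called the score here) and another deposited value, the summit's offset in bp. Positions were written 1-based. Of 12745 peaks, 12462 on the main arms were used, and 0 columns of samples were left unmapped. No sample was dropped.

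Peaks were joined at 1 bp overlap, checked against bedtools (6511 regions by both) and on simulated lists, where all planted members were recovered. Percentiles rank scores over a whole list. For a share of 0 the limit printed is 3 counts of the total. Named regions are the 10 members with the highest Su(H) score, the highest-scoring member holding each partner list, and that of each of the 3 commonest combinations of 4 regulators. The members and lists were chosen with earlier results of these data known. No dm3 genome or annotation was used here, so sequences, motifs and genes are not given. A RefSeq table of a later assembly served to look up regulator names. Python 3.11.15 with pandas 2.3.3, numpy 2.4.6, scipy 1.17.1 and matplotlib 3.10.9 was used.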

Additional observations from a re-analysis of the deposited data

How the results depend on the processing

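No paired analysis was possible because each group has 1 peak list and its columns carry no replicate, and for the same reason no replicate could be left out. Of 316 recomputed values under 27 alternatives, 284 stayed within the interval of the original value (counts and differences within 1.5 times) and 32 moved. The only difference recomputed was that in median Su(H) percentile between members with and without insv, and it did not change sign. With the top-scoring 50% of each list, 206 members were left, of which 35.4% held CG8478, 13.6% Hr78 and 19.9% insv, 68.0% had a single partner, and those with insv had a median Su(H) percentile of 94.4 in the shortened list. Under the other alternatives the number of members ranged from 332 to 481. With 2 to 3 regulators, Notch was held by 29.4%, Hr78 by 13.3% and AbdB by 5.19%, and 64.8% had a single partner. With 2 to 5 regulators, CG8478 was held by 50.1%, Notch by 46.6%, Hr78 by 29.1% and AbdB by 17.5%, and 46.8% had a single partner. Without the CG8478 list, Notch was held by 57.4%, Hr78 by 34.5% and AbdB by 21.1%. Without the Notch list, CG8478 was held by 53.9%, Hr78 by 30.4% and AbdB by 19.96%, and 58.3% had a single partner. Hr78 was held by 27.9% without the AbdB list and by 6.11% without the larval Hr78 list, and AbdB by 14.6% in that case. These moves follow in part from the alternatives' own construction, since fewer lists or other limits admit other regions. Overlap of the peaks themselves over 50% of the shorter peak was found for 91.4% of CG8478, 86.0% of Notch and 78.4% of larval Hr78 members, and summits within 250 bp for 84.8% of CG8478, 77.1% of Notch, 78.4% of larval Hr78 and 92.6% of insv members. The difference in median Su(H) percentile between members with and without insv, an added comparison chosen after the data were seen, ranged from 35.1 to 42.2 percentile points. The search for motifs was not run. Depth is unknown and limits what the absence of a peak shows.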
